A study of Mus musculus with 10 samples.

Results

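The cells described here were reactive cholangiocytes of 5 *Ctl* mice, 5 of the 10 samples of the series, each a sort from the liver of 1 mouse named by its number (A5215, A5219, A5221, A5626 and A5628). They were chosen as all samples titled Smad4_WT, with no cutoff on a measured value, although earlier results of these data were known. The labels give the genotype Smad4wt/wt, a diet with DDC, a compound that causes porphyrin to build up, at 0.1% for 2 weeks and the cell type reactive cholangiocytes. The study describes its control cohorts as lacking *Alb-Cre*, which does not settle which *Smad4* alleles these 5 mice carried. The mice were of mixed background, littermates where possible, and age and sex are not in the labels. The other samples of the series, with floxed *Smad4*, were not compared. Cells were sorted as EPCAM+/CD45-/TER119- after low-speed spins meant to pellet hepatocytes, and their RNA was amplified before sequencing, so each value is a level in sorted and amplified material, with no unsorted liver and no uninjured duct beside it. *Smad4* itself was read in every mouse, at 133.3, 173.3, 171.0, 139.1 and 179.1 transcripts per 1000000 (TPM) in the order of mice given above.

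Cholangiocytes line the bile ducts, where they modify bile by secretion and absorption of water, chloride and bicarbonate. DDC blocks heme synthesis, and porphyrin precipitates plug small ducts. The ducts then multiply in the ductular reaction, in which reactive cholangiocytes secrete chemokines, matrix and growth factors that act on neighbouring macrophages, stellate cells and endothelium. Osteopontin (*Spp1*), clusterin (*Clu*), keratin 19 (*Krt19*), EPCAM and E-cadherin (*Cdh1*) are usual markers of these cells.

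The libraries held 16249719 to 21277339 reads on genes. The deposited values were the authors' normalized counts, which carry no correction for gene length, so levels of different genes are given here as TPM, that is normalized counts per kilobase of exon scaled to 1000000 in each mouse, as mean ± SD (n = 5 mice). Where a gene had no read in a mouse, a count of 0 allows up to 3 reads, or 2.55 to 3.33 normalized counts, counting error only. No groups were compared, and an exact sign-flip test of 5 pairs cannot go below p = 0.0625, so orders are given as numbers of mice. Spreads are given as the coefficient of variation (CV, SD as a percentage of the mean) of the normalized counts. The limit of Dixon's test for a far value was used only to flag values for a closer look. Mouse A5215 stood apart: 733 genes, 6.39% of the 11474 genes averaging at least 100 normalized counts, were more than 2-fold above the median of the 5 mice there, against 22 to 203 genes in the others. The values that moved most without it are given with the spread between mice. In bulk RNA of this kind, fewer cells of a type and less RNA per cell cannot be told apart.

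Of 49568 genes in the file, 24790 had no read in any *Ctl* mouse. A gene was called detected at 1 TPM or more in all 5 mice, which 12748 genes reached. Among nuclear protein-coding genes 12108 of 21765 were detected, a share of 55.6% that serves as the background for the gene lists below. The transcriptome was steep at its top: 504 genes held 50% of the mean TPM, the 10 most abundant genes of each mouse held 12.6 to 14.1%, and the 100 most abundant held 30.8 to 31.4%. Above 1000 TPM stood 96 genes, above 100 TPM 1760 genes and above 10 TPM 9328 genes. Of the 100 genes with the highest means, 67 were among the top 100 in every mouse. Mitochondrial transcripts made up 1.48 to 2.79% of TPM and the 88 cytosolic ribosomal protein genes 1.46 to 1.69%, with none of the latter in the top 100. Whether multi-mapping reads were counted is not known, and the part of this in the ribosomal protein share was not tested.

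The 5 duct markers were all among the 100 most abundant genes by TPM over the union of exons, although *Cdh1* stood at rank 106 per kilobase of the longest transcript. *Spp1* (chr5:104435118-104441050, plus strand, GRCm38), a secreted phosphoprotein that binds integrins and CD44, reached 27577, 42464, 34572, 39665 and 46505 TPM, 3.82% of all TPM on average and rank 1 in each mouse. *Clu* (chr14:65968483-65981547, plus strand), a secreted chaperone and regulator of complement, reached 21857, 36103, 31687, 33860 and 38201 TPM. Both were lowest in A5215 and highest in A5628, and the ratio of *Spp1* to *Clu* stayed between 1.09 and 1.26. *Spp1* stood above *Clu* in 5 of 5 mice over the union of exons, but *Clu* stood above *Spp1* in 5 of 5 mice as normalized counts (means 635929 and 359949) or per kilobase of the longest transcript, so which of them leads depends on the length used. *Krt19* followed at rank 42 with 1955 ± 282 TPM, *Epcam* at rank 46 with 1884 ± 362 and *Cdh1* at rank 73 with 1208 ± 185. *Epcam*, the antigen used to sort the cells, was at 1243 TPM in A5215 and at 1985 to 2121 in the other 4 mice.

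Next to these the ranking held the simple epithelial keratins *Krt18* (8429 ± 974 TPM, rank 5) and *Krt8* (7150 ± 927, rank 6), whose proteins pair in filaments. *Krt18* exceeded *Krt8* in 5 of 5 mice, at a ratio of *Krt8* to *Krt18* of 0.825 to 0.865. All 50 keratin genes of the file together gave 18234 ± 2239 TPM, 1.82% of the total, yet only 10 were detected. *Krt23* (330 TPM) and *Krt7* (242 TPM), both ductal, came next after *Krt19*, and *Krt17* stood at 87.7 TPM. The keratins were thus almost wholly of the simple type.

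The other leading genes included the class I heavy chain *H2-D1* (5610 ± 1163 TPM) and its partner *B2m* (6584 ± 700), the actin-binding *Tmsb4x* (5591 ± 1277), the IGF-binding *Igfbp7* (5445 ± 880), the vitamin D-binding protein *Gc* (4677 ± 1068), annexin *Anxa5* (4293 ± 1052), the ferritin chains *Fth1* (3324 ± 812) and *Ftl1* (2869 ± 1266), the calcium-binding *S100a11* (2951 ± 521) and the class II chaperone *Cd74* (2865 ± 827). *Apoe*, the lipid carrier, ranked 3 by mean, with unequal values of 26092, 7646, 7270, 14700 and 5181 TPM. *Lyz2*, the lysozyme of macrophages, ran with it at 11282, 3548, 2911, 6542 and 1022 TPM, and the lysosomal *Psap* at 4876, 1477, 1807, 2934 and 1219 TPM. For these 3 genes A5215 was the highest mouse and A5626 the second, the reverse of *Spp1* and *Clu* for A5215. The 57-base miRNA gene *Gm23935* held rank 4 per kilobase and rank 994 by normalized count, so its place rests on its short length. From *H2-D1* downward most neighbours in the ranking differed by less than their SD, and only *Atf3* above *Egr1* kept its order in 5 of 5 mice.

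**Figure D1:**
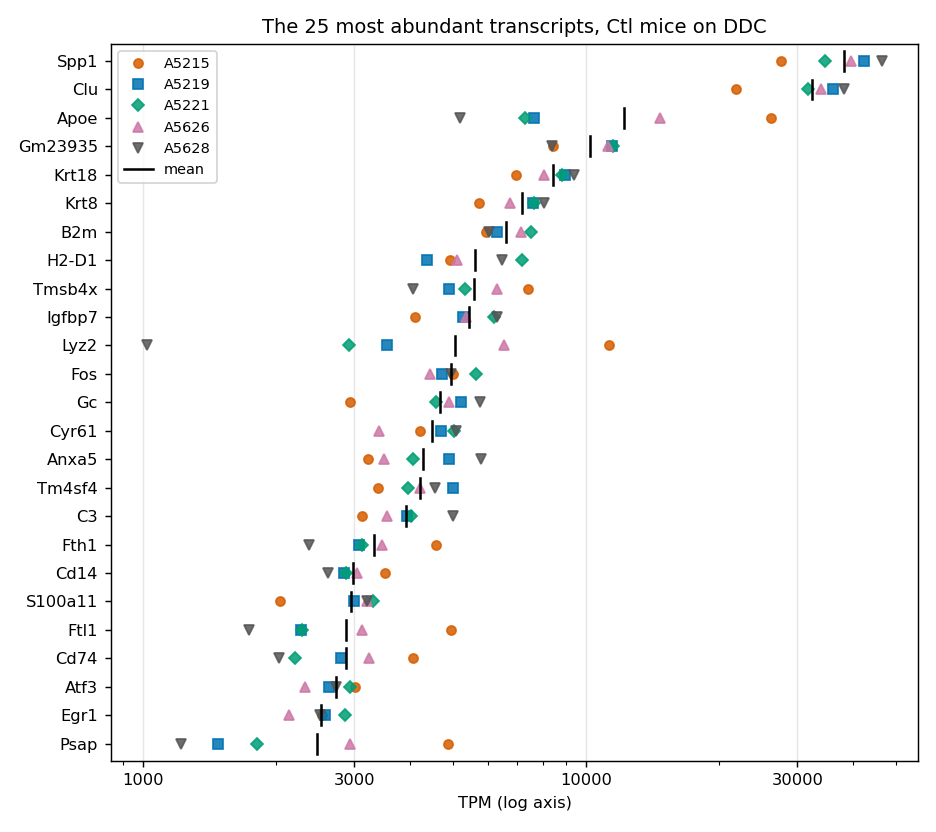
TPM (log axis) of the 25 genes with the highest means outside mitochondrial and ribosomal protein genes, 1 symbol for each of the 5 mice and a black bar at the mean. *Spp1* and *Clu* lie above all others in 4 of 5 mice, and in A5215 *Apoe* (26092 TPM) exceeds *Clu* (21857 TPM), while *Lyz2*, *Apoe*, *Ftl1* and *Psap* spread most widely.

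Secreted products were taken from 8 lists with 237 genes, of which 192 (81.0%) were detected against the 55.6% of all protein-coding genes. They held 11.6% of all TPM, most of it in *Spp1* and *Clu*, and 13 of them were in the top 100. The lists were broad and also held proteins found mainly inside cells, such as *Cstb*, *Ctsb* and *Ctsd*. The lists were written from genes known in liver, duct and inflammation, with earlier results of these data known. This share, and those of the surface and transcription factor lists below, are therefore descriptions only.

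All 28 matrix and matricellular genes were detected. *Cyr61*, a YAP target that binds integrins, reached 4485 ± 696 TPM (rank 15), with its relative *Ctgf* at 737 ± 183, and *Sparc* at 1003 ± 257, *Thbs1* at 420 ± 85.8 and the basement membrane protein *Tinagl1* at 339 ± 54.3. In the complement list *C3*, the central component, stood at 3928 ± 699 TPM (rank 20) and the C1 inhibitor *Serping1* at 755 ± 230. *C3* was read at 3122, 3943, 4032, 3546 and 4998 TPM, close together in all mice, whereas the C1q chain *C1qa* (662 ± 732 TPM) and properdin *Cfp* (223 ± 246) varied by more than their means. The protease *Cfd* had no read in any mouse.

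Chemokines were led by the monocyte attractant *Ccl2* (1213, 2915, 2836, 2019 and 3276 TPM), followed by the neutrophil attractant *Cxcl1* (743 ± 207), *Ccl20*, ligand of CCR6, at 564 ± 281, and the scavenger-type *Cxcl16* at 503 ± 51.3. *Ccl2* was lowest in A5215, where macrophage markers were highest. *Ccl20* was lowest there as well, at 192 TPM against 357 to 844 in the others. *Ccl6* showed the opposite order, with 1154 TPM in A5215 and 69.0 in A5628. Of 22 chemokines 19 were detected, and *Cxcl15* was under 1 TPM on average.

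Among cytokines *Mif* (517 ± 98.0 TPM), the interleukin 1 antagonist *Il1rn* (487 ± 77.6) and *Tnf* (224 ± 57.8) led, with CVs of 13 to 23%. *Il1b* (178 ± 179) and *Il1a* (126 ± 113) varied by about their means, *Il1b* from 24.3 TPM in A5628 to 476 in A5215. *Il6* was low (10.8 ± 6.88 TPM), and *Ifng*, *Il25*, *Tslp* and *Tnfsf15* averaged under 1 TPM. *Il12a* and *Ifnb1* had no read in any mouse.

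Of the TGFβ family, 17 of 22 genes were detected. *Bmp2* was highest by mean (126 ± 79.2 TPM) and ranged from 62.3 to 257 TPM, with its top in A5215. The latent binding proteins *Ltbp4* (122 ± 39.6) and *Ltbp3* (52.2 ± 9.0), *Bmp6* (58.7 ± 4.82) and *Tgfb3* (57.8 ± 11.6) came next. Among the TGFβ ligands *Tgfb3* and *Tgfb2* (43.6 ± 7.0) had CVs of 17.3% and 12.3%, and *Tgfb1* (31.6 ± 14.6) one of 51.5%. *Tgfb1* was highest in A5215 at 55.6 TPM and lowest in A5628 at 19.9 TPM, so in A5215 it stood above both other ligands and in A5628 below both. *Nodal*, *Grem1*, *Nog* and *Gdf11* averaged under 1 TPM.

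Of 50 other growth factors and morphogens 40 were detected. Progranulin *Grn* (675 ± 316 TPM), *Hdgf* (320 ± 51.2), the EGF receptor ligand *Hbegf* (228 ± 22.4), *Csf1*, the growth factor of macrophages (188 ± 49.1), and *Pdgfd*, which acts on mesenchymal cells (176 ± 45.7), led. *Hbegf* was even between mice, at 190 TPM in A5626 and 231 to 247 in the others. The relatives *Areg* and *Egf* averaged 0.677 and 0.381 TPM. *Shh*, *Fgf15*, *Fgf7* and *Fgf10* were also under 1 TPM on average.

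Mucosal defence products were led by lipocalin *Lcn2* (1696 ± 242 TPM), the antiprotease *Slpi* (1085 ± 768), *Wfdc2* (618 ± 171), the scavenger receptor *Dmbt1* (585 ± 137) and the membrane mucin *Muc1* (577 ± 140). *Slpi* was at 568, 529, 2388, 799 and 1142 TPM, highest in A5221 by more than 2-fold over the next mouse. The summed mesothelial genes described below ran in the same order of mice, and the part of mesothelial RNA in *Slpi* was not tested. Of the gel-forming mucins, *Muc2* and *Muc5ac* averaged 0.0333 and 0.0031 TPM, *Muc5b* had no read, and *Muc6* stood at 1.03, 4.70, 13.2, 0.125 and 1.20 TPM, highest in A5221. Of the trefoil factors *Tff2* stood at 282 ± 67.9 TPM and *Tff1* at 0.0475.

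Of 41 proteases and inhibitors 37 were detected. *Mmp7*, matrilysin, reached 1559, 1598, 2102, 1403 and 2141 TPM (rank 48), and the cysteine protease inhibitor *Cstb* 1935 ± 79.9 TPM, with 1.11-fold between its highest and lowest mouse. The lysosomal cathepsins *Ctsb* (1694 ± 1031 TPM) and *Ctsd* (1354 ± 797) were again highest in A5215, *Ctsb* at 3379 TPM there and 868 TPM in A5628. *Mmp10* had no read.

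**Figure D2:**
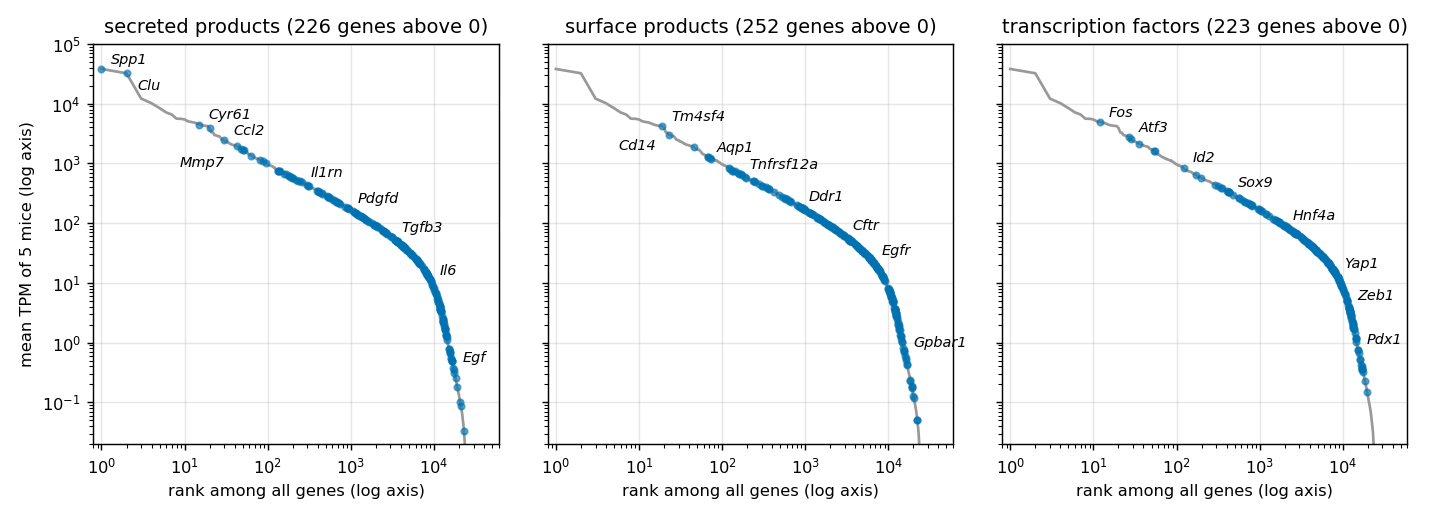
Mean TPM of the 5 mice against rank among all genes (both axes log), with all genes as the grey curve and the listed secreted products, surface products and transcription factors as blue points, some named. Secreted products occupy ranks 1 and 2 (*Spp1* and *Clu*), the first surface product is *Tm4sf4* at rank 19 and the first transcription factor *Fos* at rank 12.

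Of 260 surface products 222 (85.4%) were detected, holding 3.80% of all TPM, with 7 in the top 100. Adhesion and junction genes made up the largest part, 21445 ± 2566 TPM, with 49 of 52 detected. The tetraspanin-like *Tm4sf4* (3391, 5019, 3964, 4210 and 4557 TPM) led, followed by *Epcam*, the tetraspanin *Tspan8* (1277 ± 264), the tight junction protein *Cldn3* (1239 ± 205) and *Cdh1*. Only 1 of the 48 adhesion genes with enough counts had a CV above 50%, against 7.46% of all genes, and 31 of the 48 were lowest in A5215, where 26.6% of all genes were lowest. *L1cam* and *Cdh16* averaged under 1 TPM.

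Integrin *Itgb1* was at 670 ± 54.3 TPM, and the αv chain *Itgav* at 181 ± 22.1 with its epithelial partner *Itgb6* at 93.5 ± 10.8 and *Itga3* at 176 ± 19.1. These had CVs of 7 to 9%. The leukocyte chain *Itgb2* (116 ± 112 TPM) and *Itgb5* (239 ± 120) were instead among the 9 of 22 integrins with a CV above 50%, against 7.46% of all genes.

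The receptor tyrosine kinases and morphogen receptors were of moderate level. The collagen receptor *Ddr1* (189 ± 19.8 TPM), *Fgfr3* (180 ± 20.5), *Ephb4* (154 ± 21.4) and the Notch ligand *Jag1* (141 ± 29.0, grouped here as a surface protein) were even between mice, while *Axl* ran from 48.1 TPM in A5628 to 477 in A5215 and the endothelial co-receptor *Eng* averaged 177 ± 57.6. *Egfr* stood at 23.3 ± 5.32 TPM and *Notch2* at 15.3 ± 1.90. *Lgr5*, *Ret*, *Erbb4* and *Bmpr1b* averaged under 1 TPM, and *Ret* had no read.

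*Cd14*, the lipopolysaccharide co-receptor, was the second surface product, with 3510, 2835, 2876, 3047 and 2612 TPM (rank 23). The TWEAK receptor *Tnfrsf12a*, known from ductular reactions, followed in its list at 657 ± 69.6 TPM, with 539 in A5215 and 674 to 724 in the others. The interferon γ receptor chain *Ifngr1* (426 ± 43.8), *Il13ra1* (195 ± 9.82) and *Tnfrsf1a* (179 ± 37.6) came next. *Tlr9* and *Il1rl1* averaged under 1 TPM.

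Among channels and transporters 43 of 52 were detected. The water channel *Aqp1* was at 1484, 690, 1614, 1219 and 1386 TPM, the zinc importer *Slc39a4* at 630 ± 120, the sodium pump chain *Atp1b1* at 333 ± 56.3, and the scaffold *Slc9a3r1* at 388 ± 27.0. *Aqp1* was lowest in A5219 by a wide gap. *Cftr*, the chloride channel, stood at 63.3 ± 14.3 TPM and the secretin receptor *Sctr* at 26.2 ± 9.97 TPM. *Slc51a*, the basolateral bile acid exporter subunit, was at 0.0102 TPM, and the bile salt pump of hepatocytes *Abcb11* at 0.432. In the hormone and nucleotide receptor list only 18 of 29 were detected. *Ednrb* (229 ± 100), *F2r* (169 ± 49.3), *S1pr1* (76.7 ± 28.8), *Agtr1a* (52.5 ± 6.06) and *P2ry2* (51.1 ± 8.45) led it, and the bile acid receptor *Gpbar1* averaged 0.691 TPM. All of these leaders but *P2ry2* were lowest in A5219, where 21 of 24 endothelial genes were lowest, against 20.9% of all genes. The part of endothelial or stellate cell RNA in these receptor levels was not tested.

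Transcription factors were detected most often, 198 of 226 (87.6%), at 3.04% of all TPM. The 6 most abundant were all products of immediate early genes: *Fos* (5006, 4731, 5638, 4435 and 4961 TPM, rank 12), *Atf3* (2721 ± 270), *Egr1* (2518 ± 256), *Junb* (2135 ± 156), *Jun* (1641 ± 138) and the co-regulator *Ier2* (1585 ± 120). The 8 genes of AP-1 subunits (*Fos*, *Fosb*, *Fosl1*, *Fosl2*, *Jun*, *Junb*, *Jund* and *Atf3*) summed to 12043 ± 1011 TPM, 1.20% of the total, between 10581 and 13169 TPM in single mice. All 25 immediate early and heat shock genes were detected and 11 were in the top 100. Their median CV was 14.1%, and *Jun* to *Fos* stood at 0.308 to 0.355 in every mouse, so their height was shared by all 5 mice. Genes of this kind are also known to be induced while tissue is digested and sorted. No sample prepared without digestion was analysed here, so induction in the liver and during preparation cannot be told apart.

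The lineage factors of the duct stood well below these. *Sox9* was at 286, 329, 302, 287 and 437 TPM (rank 428), *Sox4* at 175 ± 26.8, *Hhex* at 172 ± 35.6 and *Foxj1*, a factor of ciliated cells, at 134 ± 24.7. The hepatocyte factor *Hnf4a* was at 91.7 ± 21.1 TPM. None of the 26 lineage factors with enough counts had a CV above 50%, against 7.46% of all genes, which would be few genes in so short a list. The intestinal *Cdx1* and *Cdx2* had no read, the pancreatic *Pdx1* averaged 0.766 TPM, and *Tbx3*, *Nr2f1* and *Nr1i3* were under 1 TPM as well.

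Of epithelial factors, *Klf6* (641 ± 46.9 TPM), *Ehf* (243 ± 49.6), *Klf2* (214 ± 68.2), *Zfp36l1* (207 ± 24.8) and *Elf3* (203 ± 38.3) led, with 26 of 27 detected. None of the 25 with enough counts had a CV above 50%, against 7.46% of all genes, again few genes in so short a list. *Zfp36l1* encodes an RNA-binding protein and was only counted with the factors. *Id2*, an inhibitor of bHLH factors, stood at 845 ± 102 TPM and *Id3* at 416 ± 111. *Hes1*, the Notch target, was at 754 TPM in A5215 and 253 to 334 in the other 4 mice. The NF-κB subunit *Rela* stood at 386 ± 43.2 and *Irf1* at 263 ± 39.3 TPM. Of the Hippo effectors, *Wwtr1* (99.95 ± 10.4 TPM) exceeded *Yap1* (14.5 ± 3.51) by mean. The levels of their targets *Cyr61* and *Ctgf*, given above, do not measure the activity of these effectors, which was not tested. *Lef1*, *Gli1*, *Gli2*, *Gli3*, *Hey2* and *Smad9* averaged under 1 TPM.

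The mesenchymal transition factors were close to background: 6 of 10 were detected and together they gave 31.9 ± 11.9 TPM, led by *Tcf21* (10.5 ± 6.60), *Zeb2* (5.00 ± 3.84), *Zeb1* (4.23 ± 1.21), *Snai2* (3.78 ± 1.27) and *Snai1* (3.40 ± 2.04). *Twist1*, *Twist2* and *Prrx1* averaged under 1 TPM. Of growth factors of the nucleus, *Myc* stood at 335 ± 63.2 TPM, *E2f4* at 77.7 ± 3.25, *Tfdp1* at 73.1 ± 9.64, *E2f5* at 68.6 ± 6.05 and *Sp3* at 53.8 ± 6.39. The stress factor *Xbp1* was at 576 ± 99.5 TPM and *Cebpb* at 444 ± 144. *Bhlhe40* (340 ± 32.6), *Nr4a1* (330 ± 70.8), *Nfil3* (108 ± 25.2), *Nr1h2* (101 ± 9.50) and *Ahr* (92.7 ± 7.50) led the nuclear receptor and metabolic list.

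**Figure D3:**
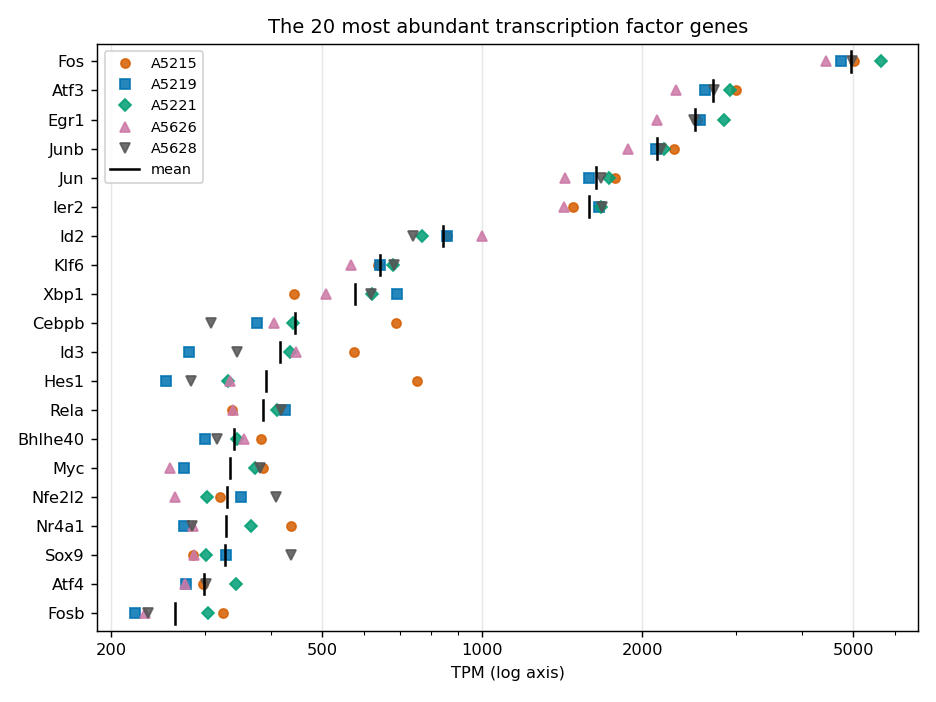
TPM (log axis) of the 20 most abundant transcription factor genes, 1 symbol for each of the 5 mice and a black bar at the mean. A gap lies between *Ier2* (1585 TPM) and *Id2* (845 TPM), and *Hes1* and *Cebpb* stand out in A5215.

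Since AP-1 genes led the factors, the letters TGANTCA were looked for in the 250 bases before the start sites of RefSeq promoters (GRCm38.p6). They are a broad form of the core AP-1 motif, which has C or G in the middle. This broad motif reads alike on both strands and was chosen after the ranking was seen. It was present for 2113 of 27025 genes with a promoter in the table (7.82%), and for 10 of the 83 among the 100 most abundant nuclear protein-coding genes (12%). Some of these 10 genes matched only with A or T in the middle. The windows of *Mmp7*, *S100a11* and *Psap*, the 3 of these 10 genes whose levels were described, were as follows. Capitals mark the motif, with up to 10 bases on each side, read on the gene's strand.
*Mmp7* (chr9:7692017-7692043, plus strand): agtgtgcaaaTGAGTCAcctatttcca
*S100a11* (chr3:93520448-93520474, plus strand): gggcacagccTGAGTCAggctgagggg
*Psap* (chr10:60277600-60277626, plus strand): tgcgcgacgcTGAGTCAagctgcgccc
The *Mmp7* match began 63 bases before the start site and the *S100a11* match 38 bases before it, and *S100a11* had another at 136 bases. *Spp1* had none in this window. A match is a description of letters and shows no binding.

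Cell cycle genes were present at low levels. Of 30 genes 29 were detected, with sums of 480, 670, 794, 1005 and 859 TPM. The replication genes *Mcm6* (96.7 ± 29.8 TPM), *Pcna* (89.7 ± 15.6), *Mcm3* (77.1 ± 16.2) and *Mcm4* (65.9 ± 17.4) and the cyclin *Ccnb2* (72.6 ± 30.3) led, and *Mki67* was at 6.61 ± 1.57 TPM. Of 28 members with enough counts 19 were highest in A5626, where 13.6% of all genes were highest, and 20 were lowest in A5215, where 26.6% of all genes were lowest. The sum in A5626 was 2.09 times that in A5215.

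Markers of other cell types were summed per mouse to describe what else the sorted material held. The 35 bile duct genes, all detected, summed to 74612, 114246, 100412, 105564 and 120933 TPM, 10.3% of the total, and 30 of them were lowest in A5215, where 26.6% of all genes were lowest. After *Spp1* and *Clu* came *Krt18*. Without A5215 the sum was 110289 ± 9108 TPM. None of the 35 had a CV above 50%, against 7.46% of all genes.

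Macrophage markers were the largest other group by mean, although hepatocyte genes summed higher in 3 of 5 mice and on average without A5215 (12439 ± 1866 against 11154 ± 6659 TPM). The 24 genes, 21 of them detected, summed to 38665, 10144, 9509, 20413 and 4552 TPM, an 8.49-fold range. All 24 were highest in A5215, where 29.5% of all genes were highest, and 23 were lowest in A5628, where 19.4% of all genes were lowest. *Lyz2*, *Cd14* and the C1q chain *C1qb* (1711 ± 1884 TPM) led, and *Clec4f*, the lectin of Kupffer cells, ran at 2117, 191, 260, 761 and 32.9 TPM. *Cd14* did not follow them: its range was 1.34-fold, while the other 23 summed to 35155, 7309, 6633, 17365 and 1940 TPM, an 18.1-fold range. In A5628 *Cd14* was 2.56 times *Lyz2*, and in A5215 0.311 times. *Ptprc*, which encodes the CD45 antigen that the sort excluded, was at 24.0, 5.94, 5.09, 11.9 and 0.946 TPM, in the same order of mice as the macrophage sum. The part of macrophage RNA in levels of *Apoe*, *Lyz2*, *Psap*, *Ctsb*, *Ctsd*, *Axl*, *Il1b*, *Ccl6*, *Tgfb1* and *Grn* was not tested.

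Hepatocyte genes summed to 9867, 13551, 9660, 13055 and 13490 TPM, with 28 of 30 detected, led by *Gc*, *Alb* (1263, 2047, 922, 1647 and 1314 TPM) and haptoglobin *Hp* (1302 ± 275). The list did not move as a unit. *Gc* and transthyretin *Ttr* kept a ratio of 5.92 to 8.57 across mice, whereas *Cyp3a11* to *Gc* ran from 0.00179 to 0.0339, a 19.0-fold range. *Gc* was read at 2933, 5208, 4585, 4891 and 5766 TPM, lowest in A5215 like the duct genes. The drug-metabolizing *Cyp3a11* was at 27.5, 9.30, 9.94, 166 and 11.8 TPM, highest in A5626. With *Cyp2e1* and *Cyp2c29* it summed to 306 TPM in A5626 and 30.7 to 74.0 in the others, a grouping made after these values were seen.

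Endothelial genes, all 25 detected, summed to 4143, 1671, 2720, 2637 and 2538 TPM. The diaphragm protein *Plvap* (721 ± 168 TPM), the sinusoidal lectin *Clec4g* (338 ± 159) and *Eng* led them. Of 24 with enough counts 21 were highest in A5215 and 21 lowest in A5219, where 20.9% of all genes were lowest. Stellate and fibroblast genes summed to 2000, 990, 1805, 814 and 963 TPM, led by decorin *Dcn* (442 ± 245), *Ecm1* (265 ± 122) and *Col3a1* (165 ± 46.2), and 12 of 16 had a CV above 50%, against 7.46% of all genes. Mesothelial genes, led by *Msln* (403 ± 95.1), *Gpm6a* (212 ± 54.5) and *Upk3b* (101 ± 55), summed to 700, 490, 1160, 760 and 973 TPM. All 6 with enough counts were highest in A5221, where 16.0% of all genes were highest.

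Blood cell markers differed by type. The B and plasma cell list was almost only *Igkc*, the immunoglobulin κ constant chain, and summed to 1914, 6378, 573, 803 and 2.82 TPM. Besides *Igkc* it was led by *Jchain* (114 ± 173 TPM) and *Ighm* (9.22 ± 6.66), followed by the B cell receptor chains *Cd79b* (5.01 ± 4.15) and *Cd79a* (3.46 ± 3.26), while *Ms4a1*, *Blk* and *Pax5* averaged under 1 TPM. *Igkc* was at 1766, 5909, 541, 745 and 0.383 TPM, so A5628, the mouse with the fewest macrophage markers, also had almost none of it. Of 13 neutrophil genes 7 were detected (41.3 to 466 TPM in sum), led by *S100a9* (71.4 ± 58.4), *S100a8* (53.2 ± 49.2) and *Csf3r* (23.7 ± 19.5), and *Ly6g* and *Elane* had no read. Only *Trbc2* (9.06 ± 2.52 TPM) and *Lck* (8.51 ± 1.54) of 17 T and NK cell genes were detected, and *Cd3e* averaged 0.173 TPM. Dendritic cell genes summed to 283 to 483 TPM, of which *Bst2* (309 ± 87.4), not particular to these cells, gave 85.3%, ahead of *Zbtb46* (19.8 ± 1.45) and *Itgax* (13.3 ± 9.88). Erythroid transcripts summed to 38.8 to 1019 TPM, nearly all globin (*Hbb-bs* 247 ± 187, *Hba-a1* 222 ± 155 and *Hba-a2* 45.5 ± 79.5). Platelet genes summed to 117 to 712 TPM with *Pf4* (185 ± 104), *Ppbp* (124 ± 84.7) and *Itga2b* (30.1 ± 19.4) in front. The mast cell list held only *Kit* (19.5 ± 9.47 TPM), with *Cpa3*, *Tpsb2*, *Ms4a2* and *Mcpt8* without a read, and the nerve list *S100b* (15.4 ± 3.45) and *Tubb3* (6.90 ± 1.90), with *Sox10*, *Elavl3* and *Snap25* without a read.

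**Figure D4:**
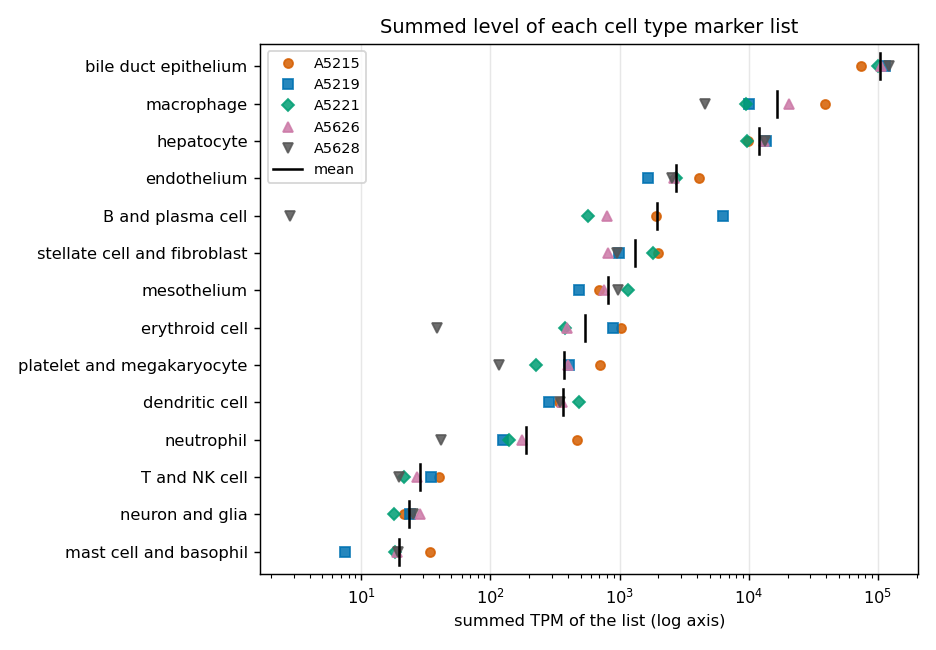
Summed TPM (log axis) of each of 14 cell type marker lists, 1 symbol for each of the 5 mice and a black bar at the mean. The bile duct list lies highest in every mouse (74612 to 120933 TPM), the macrophage list reaches 38665 TPM in A5215 and 4552 TPM in A5628, and A5628 is lowest for macrophage, B and plasma cell, erythroid, platelet, neutrophil and T and NK cell markers.

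Spread between the mice was small for most genes. Over the 11474 genes that averaged at least 100 normalized counts the median CV was 15.9%, against 3.72% from counting alone, and 63.7% of genes had a CV under 20%. A CV above 50% was found for 856 genes (7.46%), and for 4.60% without A5215. Rank correlations of the normalized counts between pairs of mice, given as descriptions, ran from 0.889 to 0.967. Of the listed genes with enough counts, 39 of 175 secreted products, 30 of 213 surface products and 12 of 186 transcription factors had a CV above 50%, so the factors were nearest to the background and the secreted products furthest above it. Of duct genes this was 0 of 35, of macrophage genes 23 of 24, of hepatocyte genes 10 of 27 and of endothelial genes 8 of 24. A5219 was the highest mouse for 21.2% of genes and A5628 for 19.6%.

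The steadiest genes were the import factor *Tnpo3* (CV 1.31%, with 1980, 2036, 1997, 1996 and 2039 normalized counts), the stress gene *Gadd45a* (1.49%), the kinase *Akt2* (1.53%), the sorting nexin *Snx1* (1.55%), *Clic1* (1.59%), *Srsf9* (1.71%), *Crebzf* (1.75%), the phosphatase *Ppp1ca* (1.77%), *Mrpl33* (1.82%) and *Sf3a2* (1.93%). For all of these but *Clic1* and *Ppp1ca* the CV was below that of counting alone, so their order has no meaning. The widest spread belonged to 11 genes read in 1 mouse alone, which tied at the highest CV. Of these 10 were immunoglobulin genes: *Igkv4-55*, *Igkv8-27*, *Ighv5-17*, *Ighg1* and 3 more κ variable segments in A5219 (510 to 3412 normalized counts), *Igkv3-7* in A5215 (1709), *Igkv8-19* in A5221 (763) and *Igkv4-72* in A5626 (604), each at 0 in the other 4 mice. The remaining gene was *Ppy*, pancreatic polypeptide, with 533 normalized counts in A5626 and no read elsewhere.

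Some means rested on 1 mouse. Of the genes named here that averaged at least 1 TPM, 15 of 213 moved by more than 1.5-fold without A5215, and each was lower without it. These were *Clec4f* (672 to 311 TPM), *C1qa* (662 to 361), *C1qb* (1711 to 934), *Cfp* (223 to 121), *Ccl6* (437 to 258), *Axl* (187 to 114), *Il1b* (178 to 103), *Il1a* (126 to 77.4), *Itgb2* (116 to 70.6), *Ptprc* (9.57 to 5.96), *S100a8* (53.2 to 32.0), *S100a9* (71.4 to 47.1), *Csf3r* (23.7 to 15.4), *Hba-a2* (45.5 to 10.5) and *Igkv3-7*, which was read there alone. The neutrophil sum went from 190 to 121 ± 57.4 TPM. Without A5219 *Igkc* went from 1792 to 763 TPM, *Jchain* from 114 to 39.0, *Cd79a* from 3.46 to 2.30 and the B and plasma cell sum from 1934 to 823 TPM. Without A5626 *Cyp3a11* went from 44.9 to 14.6 TPM and *Cyp2c29* from 20.6 to 7.47, and without A5221 *Muc6* from 4.05 to 1.76 TPM. Besides these, only the genes read in 1 mouse alone and the sex-linked *Xist* moved as far.

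**Figure D5:**
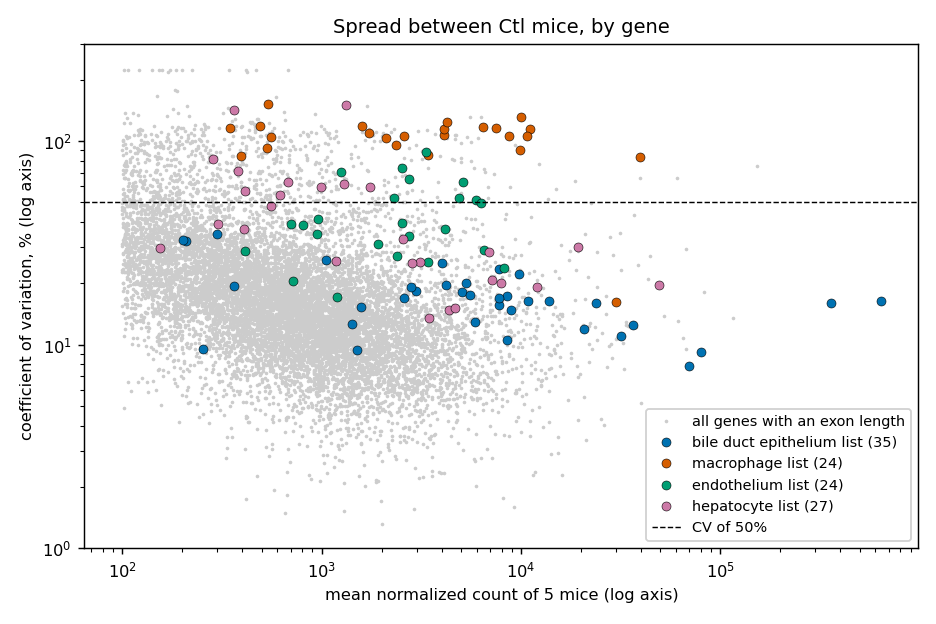
Coefficient of variation of the normalized counts over 5 mice (log axis, %) against their mean (log axis), for all genes averaging at least 100 that have an exon length (grey) and the members of 4 marker lists, with a dashed line at 50%. All 35 duct genes lie under the line and 23 of 24 macrophage genes above it, the exception being *Cd14* (16.1%).

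Sex-linked genes separated the mice. *Xist*, the RNA of the inactive X chromosome, was at 769 and 823 normalized counts in A5221 and A5628 and at 0 to 1.70 in the other 3, which instead had the Y-linked genes, so the *Ctl* group held both sexes. The Y-linked *Eif2s3y* averaged 31.9 ± 29.2 TPM, *Ddx3y* 29.4 ± 27.0, *Uty* 7.22 ± 6.59 and *Kdm5d* 1.74 ± 1.68.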

How the data were processed

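Sorted reactive cholangiocytes of 5 *Ctl* mice on DDC were taken as 1 sample per mouse by their titles. The submitters also tag each mouse number as a cell line and give a culture protocol, whereas in the methods the cells come straight from digested livers. The deposited values are a signal that the authors made with Trimmomatic 0.36 (trimming), STAR (alignment to GRCm38.p5), featureCounts (reads per GENCODE gene) and DESeq2 1.14.1 in R 3.3.2, which divided each count by the size factor of its mouse. The notes also name mm9. Reads were counted in 2 ways, unique alignments alone and with multi-mapping reads added, and the sources used here do not say which set was deposited. All values (100%, relative tolerance 1e-06) were whole multiples of the smallest value of their mouse, which gave back the reads.

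The values were divided by the union of exons of GENCODE M21 (GRCm38), matched for 47763 of 49568 genes (47313 by symbol and 450 by synonym, 99.9% of counts), and scaled to TPM. Means, SDs, ranks and CVs were computed with pandas 2.3.3 under Python 3.11.15, and the CV step was tested on simulated counts. No count model was fitted, since no groups were compared. Each mouse gave 1 library, so the spread between mice includes technical error.

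The mice, gene lists and markers were chosen with earlier results of these data known. Named were the 5 duct markers, the 25 genes with the highest TPM outside mitochondrial and ribosomal protein genes, in each list the 5 highest (3 in cell type lists) and members under 1 TPM, the 10 genes of highest and of lowest CV, and sort and sex-linked genes. All others, such as *Smad4*, *Il6*, *Tgfb1*, *Tgfb2*, *Itgb6*, *Egfr*, *Notch2*, *Jag1*, *Cftr*, *Sctr*, *Hnf4a*, *Yap1*, *Wwtr1*, *Clec4f*, *Cyp3a11*, *Tff2* and *Mki67*, were chosen after their values were seen. Alternatives were other lengths, scales, minimum levels and medians, and leaving out each mouse. Columns of the other samples were not used. A few list members are not reported here.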

Additional observations from a re-analysis of the deposited data

Results flagged for a closer look

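In 5 mice a value was singled out where its highest or lowest mouse lay further from the nearest other mouse than 0.71 of the whole range, the 95% limit of Dixon's test, which chance passes in about 1 of 20 groups. Among all genes averaging at least 100 normalized counts 6.28% passed it. Among the 275 genes named in the report, taken without that minimum, 37 did (gap as a share of the range in parentheses below). Several of the 37 averaged under 1 TPM, so this count and the share over all genes were not taken at like levels. Several of the 37 were also named because of their spread. The gaps of genes and lists were taken on TPM, and whether they pass the limit on normalized counts was not tested.

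A5215 was the far mouse for 13 of the 37. It was lowest for *Epcam* (0.846), *S100a11* (0.754), *Tnfrsf12a* (0.727), *Wfdc2* (0.797) and *Itga3* (0.722), and highest for *Hes1* (0.838), *Fosl2* (0.775), *Irf1* (0.759), *Il1a* (0.751), *S100a8* (0.748), *Hba-a2* (0.820), *Igkv3-7* (1.0) and *Ms4a1* (1.0). It was also far from the others in the number of genes more than 2-fold above the median (0.745) and in the summed sort antigens *Epcam* and *Ptprc* (0.847), a sum that is almost all *Epcam*. All 24 macrophage markers were highest in the same mouse, and their part in these values was not tested.

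A5626 was highest for the hepatocyte genes *Cyp3a11* (0.884), *Cyp2c29* (0.856) and *Abcb11* (0.873), for *Igkv4-72* (1.0) and *Ppy* (1.0), and for *Ifng*, *Nodal*, *Nog*, *Tff1* and *Muc5ac* (each 1.0), which averaged under 1 TPM, and it was lowest for *Hbegf* (0.722). A5219 was highest for *Jchain* (0.751), *Ighg1*, *Ighv5-17*, *Igkv4-55* and *Igkv8-27* (each 1.0) and *Cxcl15* (0.769), lowest for *Zeb1* (0.719), and lowest in the summed channels and transporters (0.806), where *Aqp1* was at 690 TPM. A5221 was highest in the summed mucosal defence genes (0.872), with *Slpi* at 2388 TPM, and for *Grem1*, *Slc51a* and *Igkv8-19* (each 1.0). Mesothelial genes also summed highest in A5221, and their part in the mucosal defence sum was not tested. A5628 was highest for *Sox9* (0.711), *Muc2* (0.836) and *Shh* (0.712), the last pair near 0 in all mice. *Ms4a1*, *Abcb11*, *Cxcl15*, *Grem1* and *Slc51a*, flagged above, also averaged under 1 TPM, so their gaps rest on very low values.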

How the results depend on the processing

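The length used decided the order at the very top. *Spp1* held rank 1 and *Clu* rank 2 by TPM, and ranks 2 and 1 both by normalized count and with the length of the longest transcript. *Krt19* moved from rank 42 to 61 by normalized count, and *Cdh1* from rank 73 to 30 by normalized count and to 106 with the longest transcript. The number of genes that hold 50% of the total was 504 by TPM and 992 by normalized count. As a share of normalized counts the bile duct list stood at 7.55% against 10.3% of TPM, the hepatocyte list at 0.731% against 1.19%, the endothelial list at 0.387% against 0.274%, the macrophage list at 0.861% against 1.67% and the B and plasma cell list at 0.0407% against 0.193%. Without its most abundant member the bile duct list held 6.50%, the hepatocyte list 0.725% and the B and plasma cell list 0.0142%. The share of genes with a CV above 50% was 7.46%, 4.35% at a minimum mean of 500 normalized counts, and 4.60 to 8.08% when 1 mouse was left out, the low end without A5215. Leaving out 1 mouse moved the macrophage share between 1.12 and 1.97% and the B and plasma cell share between 0.0823 and 0.242%, the lowest without A5215 and without A5219. Detected genes numbered 12864 to 12945 with 4 mice. Of the other alternatives, 100 of 114 for the smaller lists and their detected members stayed within the spread between mice or within 1.5 times the count. No paired analysis was possible because 1 group was described and no groups were compared.

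The depth of 16249719 to 21277339 reads limits what can be said of genes under about 3 reads, and amplified RNA of 5 mice of both sexes gives no estimate of technical error. Mapping of reads shared by related genes (class I heavy chains, globins, immunoglobulin segments and ribosomal protein genes) was not settled here.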

Other observations

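DDC blocks heme synthesis, so genes of heme and iron handling were also described. All 19 heme and iron genes with a value were detected. After the ferritin chains *Fth1* and *Ftl1* came heme oxygenase *Hmox1* (437 ± 333 TPM), *Alad*, which makes porphobilinogen (346 ± 46.6), and the iron exporter *Slc40a1* (232 ± 167). *Alad* and the decarboxylase *Urod* (67.2 ± 9.13) were even between mice, with CVs of 12% and 11%, whereas *Hmox1* and *Slc40a1* had CVs of 82% and 77%. The list summed to 12310 TPM in A5215 and 5396 to 8570 TPM in the others, and 10 of 19 members were highest in A5215, where 29.5% of all genes were highest. Macrophages also express *Hmox1* and *Slc40a1*, and their part was not tested.

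Immunoglobulin transcripts differed between mice by segment. Of 346 variable segments in the file 31 reached 100 normalized counts in at least 1 mouse, 24 of these in exactly 1 mouse, and 14 had no read in the other 4 mice. A5219 held 23 such segments and 15382 normalized counts on variable segments, A5215 7 segments and 5136 counts, A5221 4 and 1418, A5626 4 and 1996, and A5628 none, with 2.22 counts in all. The heavy chain constant genes differed too. *Igha* was at 8905, 19672, 889 and 2020 normalized counts in A5215, A5219, A5221 and A5626 and had no read in A5628, *Ighg1* was read in A5219 alone (3412), and *Ighg2b* was at 2076 in A5221 and 0 to 22.1 elsewhere.

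Genes that stood at more than 4 times the next mouse, with at least 150 normalized counts, numbered 21 in A5215, 14 in A5219, 3 in A5221, 11 in A5626 and none in A5628. In A5219 all 14 were immunoglobulin genes. In A5626 they held the hepatocyte enzymes *Cyp7a1* (152 normalized counts), *Cyp1a2* (593), *Cyp2a5* (781), *Cyp3a11* (4855) and *Cyp2c29* (1290) and the transporter *Slco1b2* (330). They also held 2 peptide hormones, *Ppy* (533) and *Pyy* (292), each without a read in the other 4 mice, with *Chgb* at 2.86 TPM in A5626 and 0 elsewhere. In A5215 the 21 included the macrophage genes *Cd163* (1984) and *Spic* (1225) and the interleukin 1 decoy receptor *Il1r2* (1199). These genes were chosen by this rule after the data were seen.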
